A study of Homo sapiens with 9 samples.

Results

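The 10 RNA-binding proteins examined here, which set epithelial or mesenchymal exon choice, were ESRP1, ESRP2, RBM47, QKI, RBFOX2, MBNL1, MBNL2, MBNL3, PTBP1 and CELF2. Their mRNA was followed in OVCA433 cells after MPZL3 knockdown. They were taken by symbol from the 58676 genes of the count table, and all 10 were present. A filter on low counts kept 9 of them among the 15975 tested genes. CELF2 did not pass it and was not tested.

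Alternative splicing differs between epithelial and mesenchymal cells in part because these states hold different sets of RNA-binding proteins. ESRP1 and ESRP2 bind GU-rich RNA beside regulated exons and maintain the epithelial isoforms of FGFR2, CD44, CTNND1 and ENAH, and RBM47 is a further epithelial regulator that also acts on mRNA stability. QKI and RBFOX2 favour many of the mesenchymal isoforms, and ZEB1, SNAI1 and related repressors lower ESRP1 transcription in epithelial-mesenchymal transition (EMT). The MBNL proteins bind YGCY motifs and promote differentiated isoforms, PTBP1 binds pyrimidine tracts and mostly represses exons, and CELF2 acts against MBNL proteins at many exons. Gene counts give the amount of each mRNA and say nothing of which exons it holds.

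OVCA433 is an established cell line of ovarian serous adenocarcinoma. MPZL3, a predicted adhesion molecule of the immunoglobulin superfamily, was knocked down by the lentiviral construct shMPZL3 #1 (hairpin TRCN0000137304) or shMPZL3 #3 (hairpin TRCN0000137252), each in 3 libraries (A, B and C), and 3 further libraries came from cells with a control vector. All cells were transduced, selected with puromycin and grown in the same serum-containing medium. The study's methods describe the control vector both as empty and as carrying a scrambled hairpin. The methods name the samples of a condition biological replicates, and p-values set the group differences against the spread between these libraries. Whether the libraries of a construct came from separate transductions is not stated. The p-values may therefore not cover variation between transduced populations.

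Library totals ranged from 16850854 to 23890191 counts, and a count of 3, the upper limit that a count of 0 allows, was worth 0.129 to 0.176 CPM (library counts scaled to a common size). MPZL3 fell from 19.5 ± 3.41 CPM (SD, n = 3) in control to 1.88 CPM with shMPZL3 #1 and 1.57 CPM with shMPZL3 #3, and all 6 knockdown libraries lay below the controls (pooled log2 -3.49, edgeR adjusted p 6.87e-08). Of the serous and epithelial markers, KRT7, KRT8, KRT18, PAX8 and MSLN were expressed in every group, at changed levels. KRT7 went from 3427 CPM in control to 2740 with shMPZL3 #1 and 2213 with shMPZL3 #3. In the same order, KRT8 went from 4810 to 2111 and 2145 and KRT18 from 2172 to 794 and 845. PAX8 went from 96.9 to 200 and 207, and MSLN from 68.3 to 85.8 and 149. MUC16 was at 3.18 CPM in control and 0 in knockdown, and WT1 had no count in any library. EPCAM was at 402 CPM in control, 5.48 with shMPZL3 #1 and 8.92 with shMPZL3 #3. The sum of all 8 ranged from 10010 to 12120 CPM in control and from 5268 to 6758 CPM in knockdown. Summed endothelial markers (PECAM1, VWF, CDH5) ranged from 0.398 to 0.621 CPM in control and from 1.49 to 5.84 CPM in knockdown. Of these 3 only CDH5 moved by more than 1 CPM, from 0.0970 CPM to 2.29 with shMPZL3 #1 and 3.70 with shMPZL3 #3. These are bulk RNA values, in which fewer cells of a kind and less RNA per cell cannot be told apart.

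The pooled comparison set both hairpins as a single arm of 6 libraries against 3 controls and asked which regulators move when MPZL3 is lost. ESRP1, ESRP2 and RBM47 fell, QKI and RBFOX2 rose, and MBNL1, MBNL2, MBNL3 and PTBP1 did not pass the test. A gene was called at an adjusted p under 0.05 by the quasi-likelihood F test of edgeR, adjusted after Benjamini and Hochberg over all tested genes. Of the 9 tested members 3 were called lower, where 17.0% of all tested genes were, and 2 higher, where 15.9% were. With a change of at least 2-fold in addition, the count was 3 lower against a background of 7.40% and 0 higher against 7.26%. The median log2 fold change of all tested genes was 0.00.

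**Figure D1:**
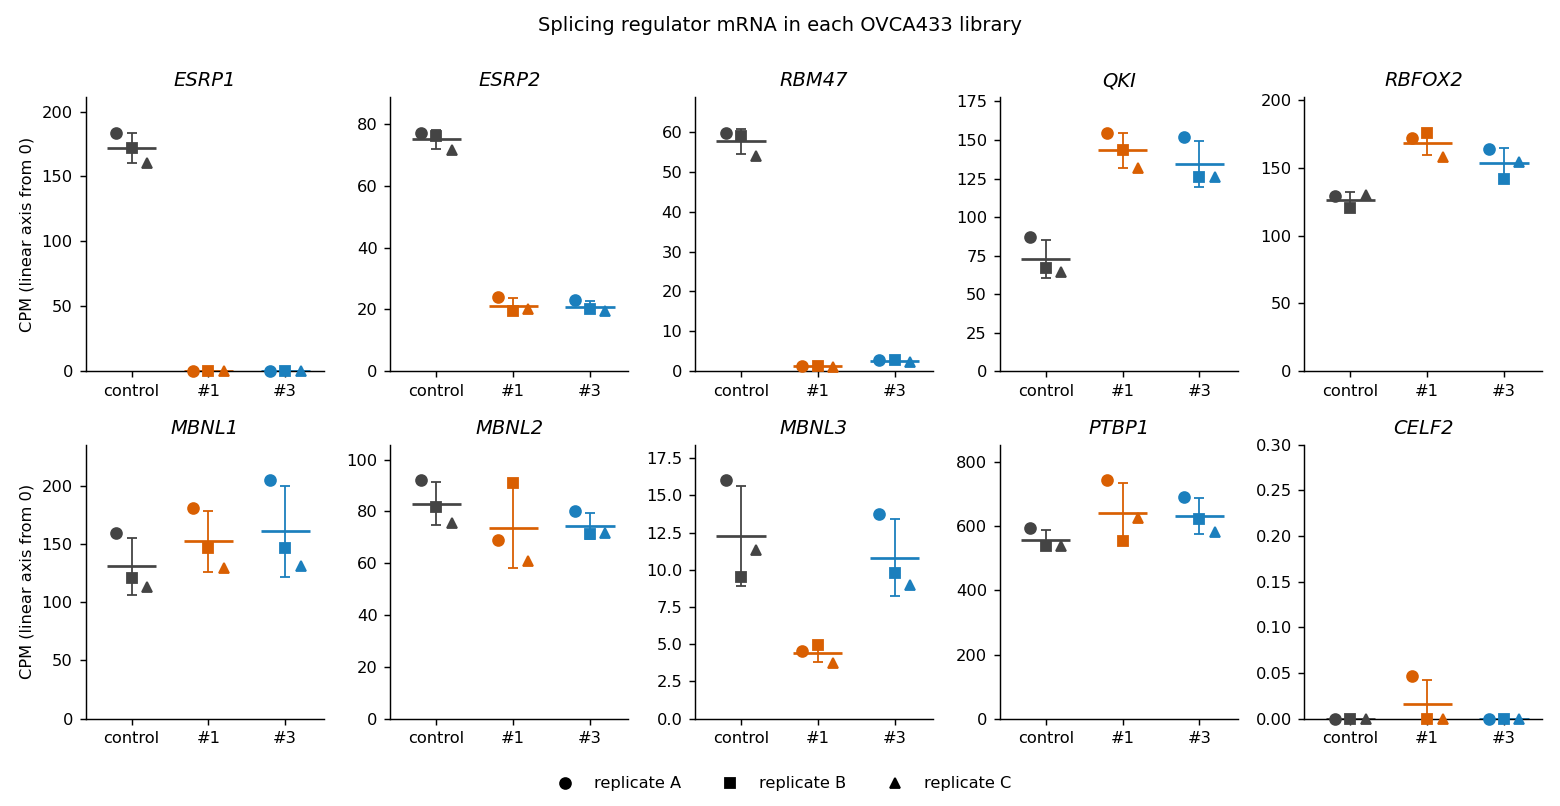
CPM of each of the 10 regulators in every library, on linear axes from 0, for control vector (grey), shMPZL3 #1 (orange) and shMPZL3 #3 (blue); symbols give replicates A, B and C, lines the group mean and bars the SD of 3 libraries. ESRP1, ESRP2 and RBM47 lie below, and QKI and RBFOX2 above, all control libraries in 6 of 6 knockdown libraries.

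ESRP1 (ENSG00000104413, GRCh38 chromosome 8, 94641074 to 94707466) was the most abundant epithelial regulator of the set in control and was all but absent in knockdown. The A, B and C controls had 3796, 3454 and 3366 counts, or 184, 172 and 161 CPM. The shMPZL3 #1 libraries held 4, 0 and 0 counts and shMPZL3 #3 libraries 1, 0 and 1. Every knockdown library was thus at or within a few counts of the limit that a count of 0 allows. Summed over libraries, ESRP1 was 2770-fold lower with shMPZL3 #1 (95% interval 1082 to 10170) and 4901-fold lower with shMPZL3 #3 (1356 to 40480). These intervals are exact conditional binomial ones and cover counting error only. The edgeR adjusted p was 8.07e-11 for the pooled comparison, 2.94e-11 for shMPZL3 #1 and 4.65e-11 for shMPZL3 #3. At 6 counts in all 6 libraries a difference between the hairpins was not detectable. The 50 nearest abundant genes on chromosome 8 had a median pooled log2 fold change of -0.32, against -11.60 fitted for ESRP1.

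ESRP2 (ENSG00000103067, chromosome 16, 68229111 to 68238102), its paralogue with the same binding preference, fell far less. Its control values were 77.1, 76.3 and 71.6 CPM. With shMPZL3 #1 they were 23.99, 19.3 and 20.2 CPM, and with shMPZL3 #3 23.0, 20.1 and 19.4 CPM. All 6 knockdown libraries lay below all controls, and the hairpin groups overlapped each other. ESRP2 remained at 28.2% of control with shMPZL3 #1 and 27.8% with shMPZL3 #3, whereas ESRP1 was at 0.0362% and 0.0203%. The pooled log2 fold change was -1.84 (SE 0.0916, edgeR adjusted p 2.83e-08). The hairpins differed by -0.03 (95% interval -0.25 to 0.20, edgeR adjusted p 0.930). ESRP2 shares 149 exon bases with NFATC3 on the other strand, and the libraries carried no strand, so reads there cannot be assigned.

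The pair therefore changed in composition as well as in amount. Per kilobase of gene length, ESRP1 and ESRP2 together stood at 48.8 ± 2.85 CPM per kb (SD, n = 3) in control, 3.82 ± 0.468 with shMPZL3 #1 and 3.75 ± 0.344 with shMPZL3 #3. ESRP1 made up 72.3% of the sum in control, and 0.293% and 0.187% in the knockdown groups. The ESRP mRNA left in knockdown cells was, by these counts, ESRP2.

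RBM47 (ENSG00000163694, chromosome 4, 40423267 to 40630875) fell with both hairpins, and further with shMPZL3 #1. The controls had 1237, 1189 and 1134 counts, or 59.8, 59.1 and 54.1 CPM. The shMPZL3 #1 libraries held 29, 24 and 25 counts (1.35, 1.22 and 1.07 CPM), and shMPZL3 #3 libraries 48, 49 and 50 counts (2.82, 2.69 and 2.30 CPM). The 3 groups did not overlap: every shMPZL3 #3 library lay above every shMPZL3 #1 library, and all lay far below control. From summed counts, RBM47 was 47.6-fold lower with shMPZL3 #1 (95% counting interval 38.1 to 60.4) and 22.4-fold lower with shMPZL3 #3 (19.0 to 26.6). The log2 fold changes were -5.57 (SE 0.146) and -4.48 (SE 0.134), with edgeR adjusted p of 2.88e-11 and 8.16e-11.

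The hairpins differed for RBM47 by 1.09 on the log2 scale (SE 0.171, 95% interval 0.76 to 1.43, edgeR adjusted p 0.00111). The 50 abundant genes around it on chromosome 4 had a median difference of 0.36 in the same direction, and the RBM47 difference less that median was 0.74. Against control, the same neighbours had medians of -0.43 with shMPZL3 #1 and 0.04 with shMPZL3 #3. The part of this regional shift in the RBM47 difference was not tested.

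RefSeq lists 4 start windows for RBM47 (GRCh38.p14, 300 bases around each start). They were searched for the E-box CAGGTG of the ZEB and SNAI families, which reads CACCTG from the opposite strand. The outermost start and the innermost start are printed 5′ to 3′ on the minus strand, with the E-box in capitals where present. The first is chr4:40630545-40630844, with no match, and the second chr4:40514532-40514831, with a single match that begins 208 bases before the start.
RBM47 outermost start: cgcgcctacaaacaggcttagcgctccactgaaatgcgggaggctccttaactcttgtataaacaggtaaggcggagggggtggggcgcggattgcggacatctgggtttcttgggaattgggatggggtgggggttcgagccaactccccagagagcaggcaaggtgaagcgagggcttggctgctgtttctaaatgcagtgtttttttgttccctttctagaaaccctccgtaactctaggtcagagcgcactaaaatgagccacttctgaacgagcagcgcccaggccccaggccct
RBM47 innermost start: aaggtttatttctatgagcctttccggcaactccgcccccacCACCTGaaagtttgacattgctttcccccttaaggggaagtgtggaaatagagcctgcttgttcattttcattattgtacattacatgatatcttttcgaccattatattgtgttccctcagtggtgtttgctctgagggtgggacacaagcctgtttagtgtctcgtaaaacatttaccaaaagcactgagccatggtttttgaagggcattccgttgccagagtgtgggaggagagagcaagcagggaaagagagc
The outermost window is 56.0% G or C with 14 CpG, and the innermost 45.7% with 5 CpG. The other 2 RBM47 windows held no match. Over all 35116 windows of the table, 20.6% held this E-box, and 24.1% of the 27305 genes had it in at least 1 window. None of the 3 MBNL1, 2 MBNL2, 4 MBNL3 and 2 PTBP1 windows held it, and 1 of the 10 CELF2 windows did. Only 6 members had a window, and ESRP1, ESRP2, QKI and RBFOX2 had none. Members that moved and members that did not could therefore not be compared. A letter match is a description and not a binding site, and which start OVCA433 cells use was not measured. Whether a ZEB or SNAI protein acts on RBM47 was not tested.

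QKI (ENSG00000112531, chromosome 6, 163414000 to 163578596), a STAR-domain protein that also promotes circular RNA formation in EMT, was the regulator with the largest rise. It was at 87.0, 67.1 and 64.1 CPM in control. It was at 155, 143 and 132 CPM with shMPZL3 #1 and at 152, 126 and 126 CPM with shMPZL3 #3. All 6 knockdown libraries lay above all controls. The rise was 1.97-fold with shMPZL3 #1 (log2 0.98, SE 0.128, edgeR adjusted p 4.31e-05) and 1.85-fold with shMPZL3 #3 (log2 0.89, SE 0.128, edgeR adjusted p 1.11e-04). The pooled value of 0.93 (SE 0.120, edgeR adjusted p 8.27e-05) had a 95% interval of 0.70 to 1.17, which holds the 2-fold line. The hairpins differed by -0.09 (95% interval -0.34 to 0.16, edgeR adjusted p 0.726). The 38 abundant genes nearest to it on chromosome 6 had a pooled median of 0.04, and the nearest 20 a median of 0.23.

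RBFOX2 (ENSG00000100320, chromosome 22, 35738736 to 36028425), which binds GCAUG and acts at many mesenchymal exons, rose by less. Control values were 129.6, 120.4 and 130.1 CPM. They were 172, 176 and 158 CPM with shMPZL3 #1 and 164, 142 and 155 CPM with shMPZL3 #3. All 6 knockdown libraries lay above the controls, although the lowest, shMPZL3 #3 replicate B, stood close to the highest control, C, and the hairpin groups overlapped each other. The log2 fold change was 0.41 with shMPZL3 #1 (SE 0.0920, edgeR adjusted p 0.00296), 0.28 with shMPZL3 #3 (SE 0.0920, edgeR adjusted p 0.0324) and 0.35 pooled (SE 0.0880, edgeR adjusted p 0.00980). Without control replicate B the pooled value was 0.31 and no longer passed the test (edgeR adjusted p 0.0664). With shMPZL3 #3 the call was lost without control replicate A, B or C (edgeR adjusted p 0.0549, 0.144 and 0.0648) and without shMPZL3 #3 replicate A or C (0.114 and 0.0848). The hairpins differed by -0.14 (95% interval -0.32 to 0.04, edgeR adjusted p 0.401).

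**Figure D2:**
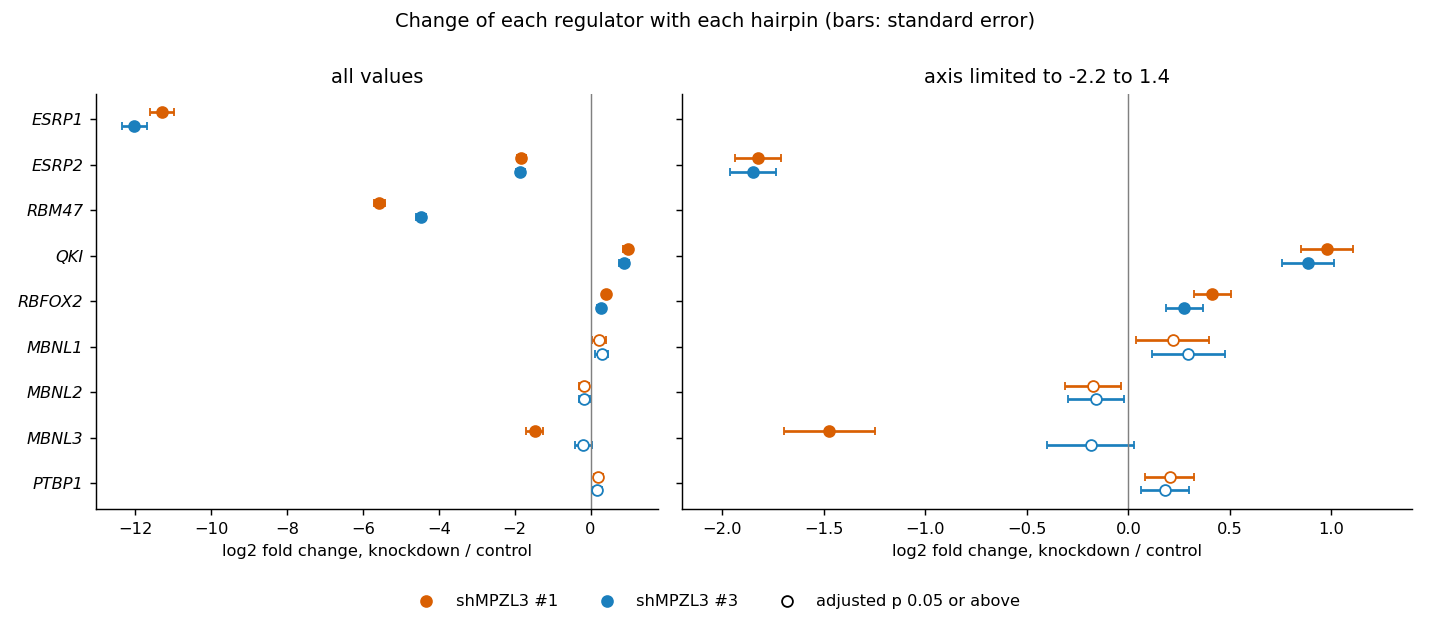
Log2 fold change of the 9 tested regulators with shMPZL3 #1 (orange) and shMPZL3 #3 (blue) against control, with bars of 1 standard error; the left panel shows all values and the right one is limited to -2.2 to 1.4. Open circles did not pass the adjusted p of 0.05: MBNL1, MBNL2 and PTBP1 with both hairpins, and MBNL3 with shMPZL3 #3 only.

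Against the same 3 controls, shMPZL3 #1 gave 4 members lower and 2 higher of 9 (background 19.7% and 18.0%), and shMPZL3 #3 gave 3 lower and 2 higher (background 18.1% and 16.6%). The additional call with shMPZL3 #1 was MBNL3. In the direct comparison 2 members, RBM47 and MBNL3, were higher with shMPZL3 #3 than with shMPZL3 #1 and 0 were lower, against 6.33% and 5.30% of all tested genes. Both of these differences exceeded 2-fold.

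MBNL3 (ENSG00000076770, chromosome X, 132369317 to 132489968) is the MBNL gene of proliferating and undifferentiated cells. It was at 16.0, 9.50 and 11.3 CPM in control and at 13.8, 9.76 and 8.97 CPM with shMPZL3 #3, and these groups overlapped. With shMPZL3 #1 it was at 4.58, 4.98 and 3.73 CPM, below every other library. The log2 fold change was -1.47 with shMPZL3 #1 (SE 0.225, edgeR adjusted p 1.67e-04) and -0.19 with shMPZL3 #3 (95% interval -0.60 to 0.23, edgeR adjusted p 0.548). The hairpins differed by 1.29 (SE 0.227, edgeR adjusted p 0.00243), while the genes around it on chromosome X had a median difference of -0.08. The pooled value of -0.69 (SE 0.362, edgeR adjusted p 0.169) averages these unlike groups. Without shMPZL3 #3 replicate A it was -0.95 and passed the test (edgeR adjusted p 0.0388), as it did when taken from the 3-group model (-0.83, edgeR adjusted p 0.00265).

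MBNL1 (ENSG00000152601, chromosome 3, 152243828 to 152465780) was at 159, 121 and 113 CPM in control, 181, 147 and 129 CPM with shMPZL3 #1 and 205, 147 and 131 CPM with shMPZL3 #3. The groups overlapped, and in each of them replicate A was the highest library. The pooled log2 fold change was 0.26 (95% interval -0.06 to 0.58, edgeR adjusted p 0.257). With the replicate letter as a block it was 0.25 and passed the test (edgeR adjusted p 0.0148), but the letters were not taken as a pairing. MBNL1 shares 1140 exon bases with MBNL1-AS1, which had at most 24 counts in a library.

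MBNL2 (ENSG00000139793, chromosome 13, 97221434 to 97394120) was at 92.0, 81.6 and 75.5 CPM in control, 69.1, 91.1 and 60.8 CPM with shMPZL3 #1 and 80.2, 71.5 and 71.5 CPM with shMPZL3 #3. The shMPZL3 #1 replicate B stood apart from its group, and without it MBNL2 fell by 0.36 on the log2 scale with shMPZL3 #1 (edgeR adjusted p 0.0367). With all libraries the pooled log2 fold change was -0.17 (95% interval -0.40 to 0.07, edgeR adjusted p 0.326).

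The summed level of the MBNL family differed between groups by less than its SD, at 31.0 ± 4.39 CPM per kb in control, 30.6 ± 4.38 with shMPZL3 #1 and 32.1 ± 5.10 with shMPZL3 #3. MBNL1 made up 42.1% of the sum in control (range 40.95% to 44.3%), 49.9% with shMPZL3 #1 (43.7% to 55.6%) and 49.7% with shMPZL3 #3 (46.2% to 53.99%). MBNL3 made up 3.21%, 1.19% and 2.74%. The MBNL1 share thus overlapped between control and shMPZL3 #1 and did not overlap between control and shMPZL3 #3.

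PTBP1 (ENSG00000011304, chromosome 19, 797075 to 812327) was the most abundant of the 10 in every group. It was at 594, 538 and 540.0 CPM in control, 743, 555 and 626 CPM with shMPZL3 #1 and 691, 624 and 581 CPM with shMPZL3 #3. Of the 6 knockdown libraries 4 were above all controls, and both hairpin groups overlapped them. The pooled log2 fold change was 0.19 (95% interval -0.01 to 0.40, edgeR adjusted p 0.188). PTBP1 accounted for 72.9% of the PTBP family sum in control, 77.3% with shMPZL3 #1 and 75.2% with shMPZL3 #3, the rest being mostly PTBP3.

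CELF2 (ENSG00000048740, chromosome 10, 11005321 to 11336675), a muscle, brain and lymphoid regulator, had a single count, in shMPZL3 #1 replicate A, over all 9 libraries. In each of the other 8 libraries the limit that a count of 0 allows was at most 0.176 CPM. CELF1 supplied at least 99.2% of the CELF family sum in each library, with 207 CPM in control, 213 with shMPZL3 #1 and 224 with shMPZL3 #3 (pooled log2 fold change 0.08, edgeR adjusted p 0.543). The start of CELF2 in the count table differs from GENCODE 29, unlike the other 9 members, whose positions were identical.

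Ordered by level per kilobase, the set was led in control by PTBP1 (80.9 CPM per kb) and ESRP1 (35.3), then MBNL2 (16.9). ESRP2 (13.5), MBNL1 (13.1) and RBFOX2 (12.7) followed and could not be told apart, as their ranges overlapped, and the range of MBNL1 also overlapped that of MBNL2. RBM47 (6.75), QKI (4.19) and MBNL3 (1.01) came last. With the length of the longest coding transcript in place of the table's gene length, ranks 3 to 6 became MBNL1, ESRP2, RBFOX2 and MBNL2, so the order among those genes depends on the length used. With shMPZL3 #1 the order was PTBP1 (93.2), RBFOX2 (16.9), MBNL1 (15.2) and MBNL2 (15.01), the last 3 overlapping, then QKI (8.25), ESRP2 (3.81), MBNL3 (0.363), RBM47 (0.142) and ESRP1 (0.0128). With shMPZL3 #3, MBNL1 (16.1), RBFOX2 (15.3) and MBNL2 (15.2) overlapped again, and QKI (7.75), ESRP2 (3.75), MBNL3 (0.887), RBM47 (0.305) and ESRP1 (0.00716) kept their places. QKI thus passed ESRP2 and RBM47 in level in both knockdown groups.

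**Figure D3:**
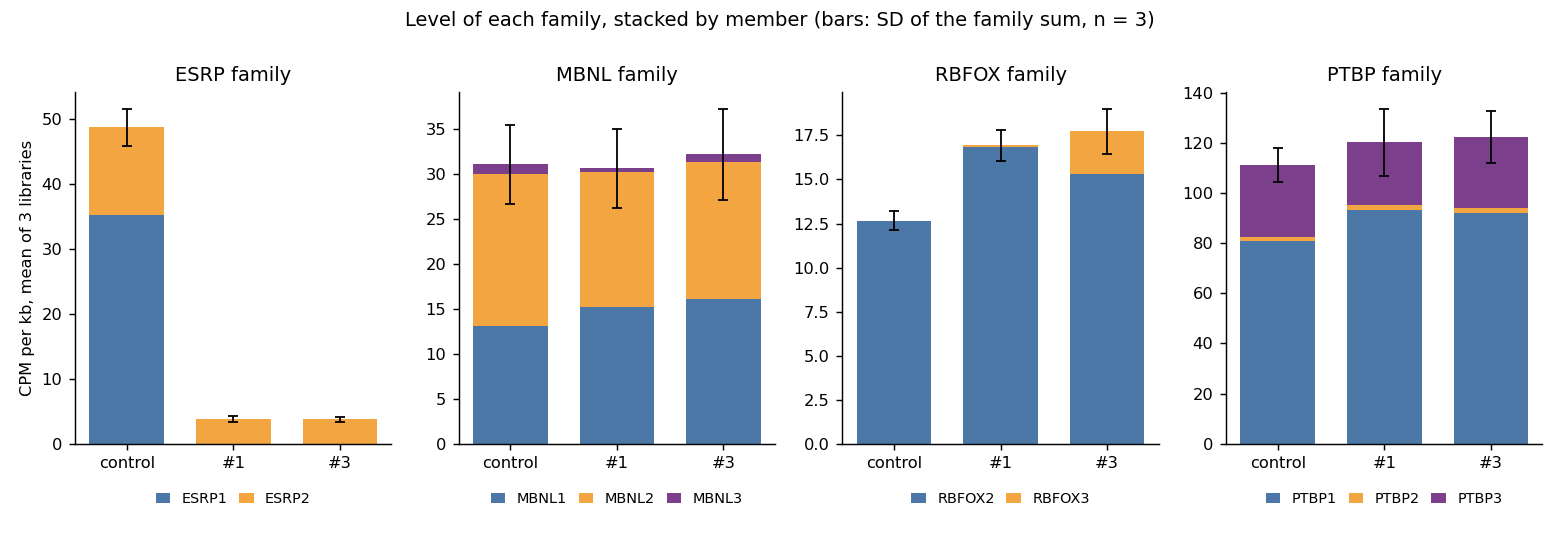
Mean level of 4 families in CPM per kb of gene length, stacked by member, in control, shMPZL3 #1 and shMPZL3 #3; the error bar is the SD of the family sum over 3 libraries. The ESRP sum drops from 48.8 to 3.82 and 3.75, the MBNL sum stays within its SD, and RBFOX3 adds a visible share only with shMPZL3 #3.

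Among 14 paralogues of the members, 7 passed the filter. In the pooled comparison 2 were higher and 0 lower (background 15.9% and 17.0%), with a median log2 fold change of 0.24. RBFOX3, the neuronal RBFOX gene, had 1, 9 and 0 counts in control, 12, 17 and 33 with shMPZL3 #1 and 258, 401 and 749 with shMPZL3 #3. In CPM the shMPZL3 #3 libraries were at 15.2, 21.98 and 34.4, above every other library. The hairpins differed by 4.64 on the log2 scale (SE 0.430, edgeR adjusted p 2.44e-05). RBFOX3 made up 13.5% ± 4.93 (SD, n = 3) of the RBFOX sum with shMPZL3 #3, against 0.574% with shMPZL3 #1 and 0.138% in control, and RBFOX1 had no count. Of the other neuronal markers, SNAP25 was highest with shMPZL3 #3 (0.274 CPM in control, 1.69 with shMPZL3 #1, 6.66 with shMPZL3 #3), ELAVL3 had at most 3 counts in a library and ELAVL4 had 0 in all. Summed, the 4 neuronal markers ranged from 0.290 to 0.646 CPM in control, 2.66 to 2.70 with shMPZL3 #1 and 21.0 to 40.1 with shMPZL3 #3, RBFOX3 itself being one of them.

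KHDRBS1, a STAR-domain relative of QKI, rose from 329 to 385 and 391 CPM (pooled log2 0.24, SE 0.0830, edgeR adjusted p 0.0458). It passed with neither hairpin alone (edgeR adjusted p 0.0805 with shMPZL3 #1 and 0.0603 with shMPZL3 #3). KHDRBS3 was low throughout, with 21, 16 and 21 counts in control, 0, 1 and 4 with shMPZL3 #1 and 12, 12 and 15 with shMPZL3 #3 (hairpin difference 3.05, edgeR adjusted p 0.00598). PTBP2 was at 21.3, 23.5 and 28.1 CPM in the 3 groups and passed the test with shMPZL3 #3 (log2 0.40, SE 0.125, edgeR adjusted p 0.0233).

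The general splicing machinery was examined next, with all-gene shares of 15.9% higher and 17.0% lower as the background of each list. Of 45 core spliceosome genes, 2 were higher and 0 lower, with 0 beyond 2-fold and a median log2 fold change of 0.03. EFTUD2, a GTPase of the U5 particle, went from 134 ± 8.18 CPM (SD, n = 3) to 182 ± 21.3 and 174 ± 10.7 (log2 0.41, edgeR adjusted p 0.00533). U2AF1, named after its values were seen, was called lower with shMPZL3 #3 at 5, 2 and 2 counts, but its reads can be shared with a near-identical copy and its value is uncertain. Of 14 SR proteins, 1 was higher and 2 were lower (median 0.11), among them SRSF8 (log2 -0.75, edgeR adjusted p 1.39e-04) and SRSF4 (log2 0.33, edgeR adjusted p 0.00963). Of 23 hnRNP proteins, 7 were higher and 1 was lower (median 0.10). With shMPZL3 #1 alone 5 were higher and 2 lower (background 18.0% and 19.7%). With shMPZL3 #3 alone 3 were higher and 2 lower (background 16.6% and 18.1%). HNRNPM, which acts against ESRP1 at shared exons, rose from 307 ± 20.8 CPM to 398 ± 40.7 and 377 ± 24.9 (log2 0.34, edgeR adjusted p 0.0169), and HNRNPUL2 fell by 0.45 on the log2 scale (edgeR adjusted p 0.00104).

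Other RNA-binding proteins tied to EMT or epithelial splicing numbered 42 after the filter, with 10 higher and 5 lower (background 15.9% and 17.0%) and a median of 0.09. The largest changes were rises of genes with restricted expression in normal tissue. The neuronal regulator NOVA1 went from 0.0804 CPM to 2.71 with shMPZL3 #1 and 1.27 with shMPZL3 #3, and NOVA2 from 0.843 to 9.55 and 10.7. RBM20, the regulator of titin splicing in heart, went from 0.375 to 3.95 and 3.04 CPM, and RBM24, a muscle regulator, from 2.61 to 18.8 and 12.8. The pooled log2 fold changes of NOVA1, NOVA2, RBM20 and RBM24 were 4.53, 3.58, 3.21 and 2.598, with edgeR adjusted p of 8.38e-05, 7.03e-08, 3.17e-05 and 4.36e-06.

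**Figure D4:**
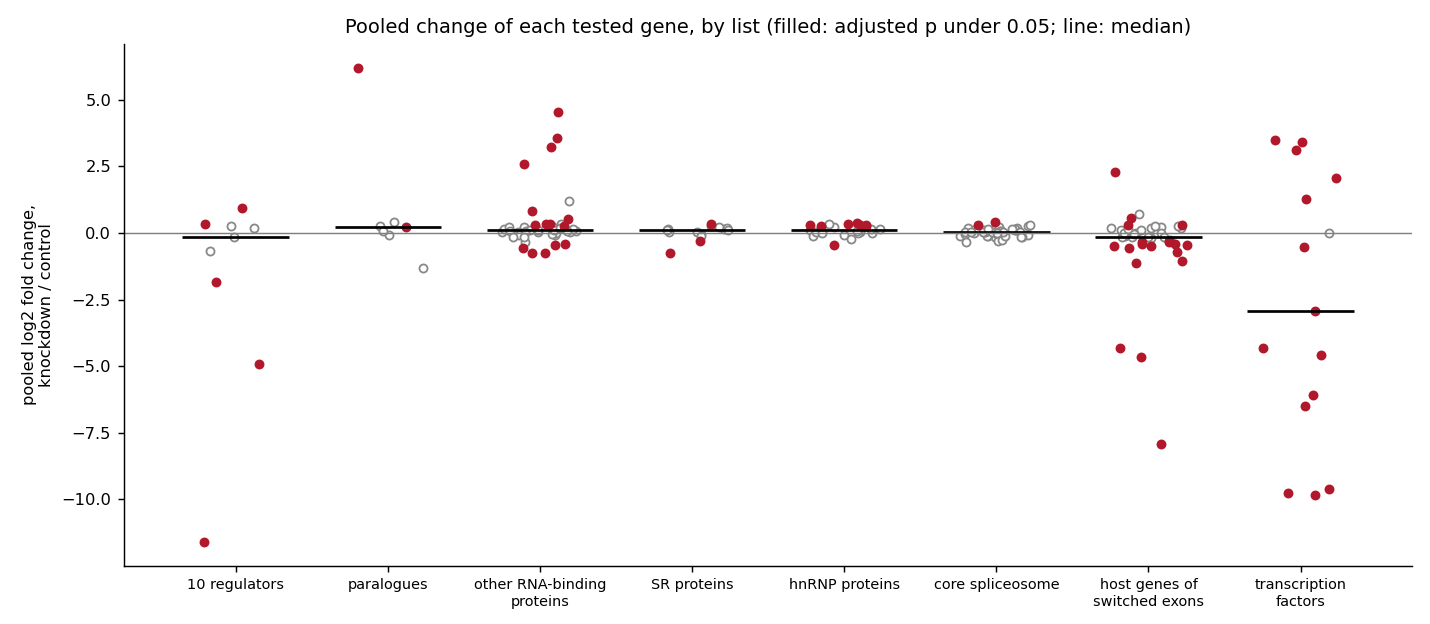
Pooled log2 fold change of each tested gene in the 10 regulators and 7 other lists, with random sideways spread for legibility; filled points passed an adjusted p of 0.05 and the line is the median. SR, hnRNP and core spliceosome genes lie near 0, while the regulators, the hosts of switched exons and the transcription factors hold the large falls.

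The transcription factors above the epithelial splicing program moved in both directions. Of 15 tested, 5 were higher and 9 lower (background 15.9% and 17.0%), of which 5 and 8 were beyond 2-fold (background 7.26% and 7.40%). GRHL2, an activator of epithelial genes, was at 112 ± 13.6 CPM in control, had 0 counts with shMPZL3 #1 and 3, 2 and 10 counts with shMPZL3 #3. OVOL1 fell from 13.1 ± 2.11 CPM, OVOL2 from 17.9 ± 1.35 CPM and EHF from 56.7 ± 6.13 CPM to 0.283 CPM or less in each knockdown group. Of the repressors that bind the ESRP1 promoter in EMT, ZEB1 rose from 3.92 ± 0.378 CPM to 43.6 ± 4.25 and 39.5 ± 3.83 (log2 3.40, edgeR adjusted p 4.30e-09), ZEB2 from 2.69 ± 0.613 CPM to 30.7 ± 2.88 and 29.5 ± 1.75 (edgeR adjusted p 1.15e-08), and SNAI1 from 3.17 ± 0.553 CPM to 23.1 ± 8.71 and 31.9 ± 10.3 (edgeR adjusted p 1.89e-05). SNAI2 was at 32.3, 31.2 and 33.98 CPM (log2 0.01, edgeR adjusted p 0.938). ZEB2, SNAI1 and SNAI2 are given as the other members of the ZEB and SNAI families, chosen after their values were seen. Whether any of these factors acts on ESRP1 or on another of the 10 regulators in these cells was not tested.

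The genes that host exons known to switch in EMT were also counted. Of 40 tested, 15 were lower and 4 higher (background 17.0% and 15.9%), with a median of -0.14, and 5 were lower beyond 2-fold (background 7.40%). LSR, a tricellular junction receptor, went from 244 ± 38.8 CPM to 1.08 and 0.935 CPM. FGFR2 went from 95.9 ± 4.57 CPM to 3.35 and 4.22, and GRHL1 from 21.7 ± 3.87 CPM to 1.11 and 1.08. FN1, the fibronectin gene, rose from 1591 ± 265 CPM to 8433 ± 4118 and 7039 ± 2092 (edgeR adjusted p 1.24e-04). CTNND1 and MAGI1, the remaining 2 beyond 2-fold, fell by 1.13 and 1.07 on the log2 scale. The pooled log2 fold changes of LSR, FGFR2, GRHL1 and FN1 were -7.92, -4.68, -4.31 and 2.28.

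The markers of cell state moved too: 8 of 8 epithelial genes were lower (median -6.00) and 7 of 7 tested mesenchymal genes were higher (median 2.57). All were beyond 2-fold, where 7.40% of all tested genes were lower and 7.26% higher. CDH1 went from 275 ± 5.48 CPM to 0.112 and 0.148, RAB25 from 128 ± 16.9 CPM to 0.0936 and 0.0744, and CLDN4 and CLDN7 from 499 ± 66.7 and 137 ± 12.8 CPM to 8.23 CPM or less. KRT8 and KRT18, in the same list, fell less, from 4810 CPM to 2111 and 2145 and from 2172 CPM to 794 and 845. PDGFRB rose from 0.555 CPM to 13.8 and 16.8, COL1A1 from 17.9 to 312 and 640.4, and CDH2 from 22.5 to 156 and 111.

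The genes most like each regulator over the 9 libraries, by Pearson correlation of log2 CPM, are given as a description. Points within a group share a condition, so a gene that falls or rises in both knockdown groups gives a high value. For ESRP1 they were BSPRY, ESRP2 and PROM2, for ESRP2 MYCN, BSPRY and ESRP1, and for RBM47 MAP7, CLDN4 and EPCAM, all at 0.996 or above. For QKI they were CCDC88A (0.996), C18orf54 (0.993) and GNB4 (0.991), and for RBFOX2 DNAJB4 (0.987), FAM49A (0.985) and ADCY9 (0.983). MBNL1 was most like PRPF38B (0.986), MCM3AP (0.984) and BCLAF1 (0.983). MBNL3 was most like TMTC3 (0.993), ADGRL1 (0.985) and WDFY3 (0.981), PTBP1 most like NOC3L (0.981), BIRC5 (0.975) and SDC1 (0.973), and MBNL2 most like EPS15 (0.949), UGGT2 (0.898) and PPP1R9A (0.897).

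The replicate letter moved with several members. Replicate A was the highest library in 3 of 3 groups for ESRP1, ESRP2, RBM47, QKI, MBNL1 and PTBP1, 6 of the 9 tested members, as it was for 16.1% of all tested genes. For ESRP1 this order carries little weight in knockdown, where replicate A held 4 counts with shMPZL3 #1 and 1 with shMPZL3 #3. Replicate C of shMPZL3 #3 also held 1 count. For MBNL1, A exceeded the mean of B and C by 1.36 times in control, 1.31 times with shMPZL3 #1 and 1.47 times with shMPZL3 #3. For QKI the ratios were 1.33, 1.12 and 1.21. The labels do not say what the letter marks. With replicates B and C alone, a fit chosen after seeing the data, the pooled log2 fold change was 1.02 for QKI (edgeR adjusted p 1.46e-04) and 0.26 for MBNL1 (edgeR adjusted p 0.102).

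**Figure D5:**
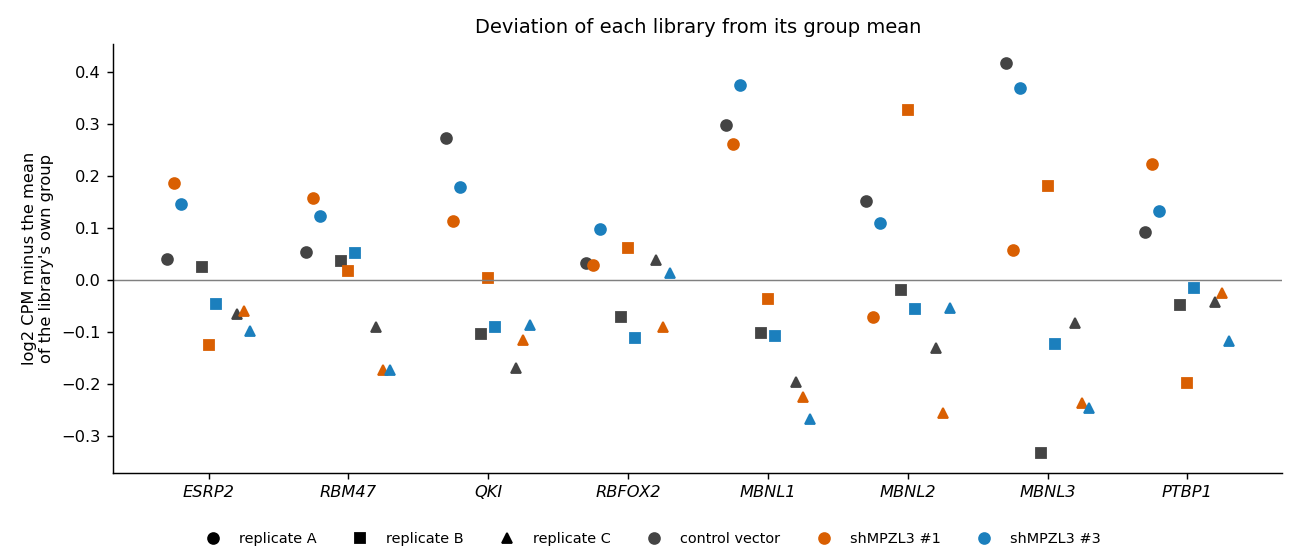
Log2 CPM of each library less the mean of its own group, for 8 regulators (ESRP1 is left out for its near-zero counts); symbols give replicates A, B and C and colours the group. Circles, replicate A, lie above 0 in all 3 groups for ESRP2, RBM47, QKI, RBFOX2, MBNL1, MBNL3 and PTBP1.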

How the data were processed

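RNA of 9 OVCA433 libraries (control vector, shMPZL3 #1 and shMPZL3 #3, 3 each) was sequenced from poly(A)-selected, non-directional preparations. The authors deposited raw read counts per gene, with no normalization; the submitters' processing notes name HISAT2 2.0.5, featureCounts 1.5.0-p3 and hg38. Gene positions and lengths are those of the count table, and 95.2% of gene positions were identical in GENCODE 29. Library totals, 16850854 to 23890191 counts, set the precision given for low genes. Without molecular identifiers, intervals and floors cover counting error only.

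Counts were filtered with filterByExpr (minimum count 10, minimum total 15) and scaled with TMM, and CPM used those factors. The quasi-likelihood test of edgeR 4.0.16 (R 4.3.3; glmQLFit, then glmQLFTest) was applied, with Benjamini-Hochberg adjustment over 15975 genes. The pooled comparison used 2 arms and the hairpin comparisons a 3-group model of all 9 libraries. Both hairpin comparisons share the control libraries. SE is the fold change over the square root of its F statistic. The procedure was run on simulated counts with the spread fitted to these libraries. The simulation changed few genes and held no effect of the replicate letter. It therefore does not show how the test behaves with the many changes and the letter effect of these data.

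The study analysed the same grouping with DESeq2, which was run here (1.42.0) as an alternative. The members, gene lists and tests were chosen with earlier results of these data known. Named genes were all members, MPZL3, all family paralogues, up to 4 genes of each list with the largest pooled change and the same call with each hairpin, and the 3 genes most correlated with each member among protein-coding genes of at least 10 CPM. Neighbours were the 50 nearest tested genes of at least 10 CPM (38 for QKI and 35 for PTBP1, near chromosome ends). Of the lists' genes, 11 stand in more than 1 list. Promoter windows from RefSeq matched 6 of 10 members.

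Alternatives were no count filter, a mean of 1 CPM, DESeq2 size factors, library totals, DESeq2, a replicate block, each library left out, thinned counts, an adjusted p under 0.01, a 2-fold threshold, pooling from the 3-group model and fits of only the compared groups. The use of replicates B and C alone was chosen after seeing the data.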

Additional observations from a re-analysis of the deposited data

Results flagged for a closer look

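ESRP1 was at 0.187 CPM (4 counts) in shMPZL3 #1 replicate A, farther from the other 5 knockdown libraries than the spread among them, which lay between 0 and 0.0588 CPM. CELF2 was at 0.0467 CPM (1 count) in the same library and at 0 in the others. Both values are within a few counts of 0. Chance nominally marks about 1 in 20 groups of normally spread values in this way. Counts this near 0 are not normally spread, so that rate applies neither to ESRP1 nor to CELF2.

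RBM47 differed between the hairpins by 1.09 on the log2 scale, higher with shMPZL3 #3, with an edgeR adjusted p of 0.00111 and all 3 shMPZL3 #3 libraries above all 3 shMPZL3 #1 libraries. The difference ranged from 1.00 to 1.19 over all alternatives and passed the threshold in each. Its neighbours on chromosome 4 differed by a median of 0.36.

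MBNL3 differed between the hairpins by 1.29, also higher with shMPZL3 #3, with an edgeR adjusted p of 0.00243, without overlap of the libraries. It ranged from 1.08 to 1.42 over all alternatives and passed in each. The median of its neighbours was -0.08.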

How the results depend on the processing

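The pooled falls of ESRP1, ESRP2 and RBM47 and the pooled rise of QKI kept their direction and call under every alternative run except the 2-fold threshold, which the 0.93 of QKI did not reach, with log2 ranges of -13.16 to -11.32, -1.89 to -1.81, -5.08 to -4.81 and 0.85 to 1.08. RBFOX2 ranged from 0.31 to 0.38 and lost its pooled call without control replicate B (edgeR adjusted p 0.0664) and with replicates B and C alone (0.0514). With shMPZL3 #3 its adjusted p ranged from 0.00626 to 0.144. MBNL3 passed the pooled test in the 3-group model (-0.83, edgeR adjusted p 0.00265). Over all 4 comparisons, 760 alternative values of single genes kept direction and call, 16 lost the call, 7 gained it and 16 changed sign, none of the last a called value.

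With the replicate letter as a replicate block, 4 members were higher with shMPZL3 #1 and 3688 genes were called between the hairpins. MBNL1 then passed at a pooled log2 fold change of 0.25 (edgeR adjusted p 0.0148). It also passed with shMPZL3 #1 at 0.22 (edgeR adjusted p 0.0140) and with shMPZL3 #3 at 0.29 (edgeR adjusted p 0.00272). PTBP1 passed with shMPZL3 #1 at 0.20 (edgeR adjusted p 0.0435). Deviations of same-letter libraries correlated at 0.0659 to 0.641, against -0.625 to 0.310 for different letters, and 6 of 9 libraries correlated best with their own letter. Pairs of A libraries were at 0.604 to 0.641 and pairs of C libraries at 0.425 to 0.518. The lowest, a pair of B libraries, was under 0.1, and no label says what the letter marks. The letters were therefore not taken as a pairing. Calls made without the block keep this shared variation in the spread, and the missing MBNL1 call depends on that choice.

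The number of members called higher was 0 with a 2-fold threshold in the pooled, shMPZL3 #1 and shMPZL3 #3 comparisons. It was 1 with shMPZL3 #3 without a count filter and at an adjusted p under 0.01, and 1 with replicates B and C alone in the pooled and shMPZL3 #3 comparisons. Leaving out 1 library gave 1 to 2 in both of these comparisons. Over all genes, the 2-fold threshold gave 2342 pooled, 2605 shMPZL3 #1, 2443 shMPZL3 #3 and 628 hairpin difference calls. An adjusted p under 0.01 gave 3385 pooled and 908 hairpin difference calls, and leaving out 1 library gave 1046 to 1971 hairpin difference calls, against 1857.

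The values that changed sign were all near 0 or at the floor. Leaving out 1 library, the hairpin difference ranged from -1.32 to 2.74 for ESRP1, -0.10 to 0.068 for ESRP2, -0.13 to 0.21 for MBNL1, -0.10 to 0.20 for MBNL2 and -0.11 to 0.092 for PTBP1, and MBNL3 with shMPZL3 #3 from -0.40 to 0.052. With replicates B and C alone the hairpin difference was 2.36 for ESRP1, 8.4e-05 for ESRP2, -0.084 for MBNL2 and 0.031 for PTBP1. With library totals it was 0.0011 for PTBP1. The cause was not tested.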
